A study of Mus musculus with 6 samples.

Results

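The interferon regulatory factors (Irf) are a family of transcription factors, and the genes examined here were the rows of the deposited gene table named Irf1, Irf2, Irf3, Irf4, Irf5, Irf7, Irf8 and Irf9. These 8 were among the 16440 genes of the table, and all 8 passed the filter on low values that left 14595 genes for testing. They were read in 6 RNA-seq libraries of sorted mouse bone marrow (BM) cells, 3 of normal myeloid progenitors (MPs) and 3 of acute promyelocytic leukemia (APL) progenitors. MPs were lineage-negative, Sca-1-negative and c-Kit-positive BM cells of the FVB N/J strain, with no transgene listed. APL cells came from hMRP8-PML/RARα transgenic mice on the same background, in which a human promoter active in myeloid cells drives the fusion oncogene. By the study's methods they were labelled with green fluorescent protein (GFP) through the MigR1 retrovirus, transplanted into irradiated syngeneic mice, and sorted as GFP-positive, c-Kit-positive cells. The labels give no age or sex of the mice and do not say whether the 3 replicates of a group came from separate mice or the 3 APL replicates from separate leukemias, so the tests below measure the spread between these libraries.

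Irf proteins share a helix-turn-helix DNA-binding domain with a row of conserved tryptophans and bind variants of the GAAA repeat found in interferon-stimulated response elements. Irf3, Irf5 and Irf7 are activated by kinases downstream of pattern recognition receptors and switch on interferon genes, Irf9 joins Stat2 in the complex that answers type I interferon, and Irf1 and Irf2 bind the same sites with opposite effects. Irf8 and Irf4 act in haematopoietic cells with partners such as PU.1, and Irf8 drives myeloid progenitors towards monocytes and dendritic cells and away from granulocytes. The comparison asks which members of the family differ between APL progenitors and their normal counterparts, and how the change of Irf8, the gene that the study pursued, stands against the others. Irf8 was singled out by the study partly on these very libraries, so its row is not independent evidence of a decrease. The study also drew on known PML/RARα target genes, drug-treated APL cells and human leukemia data. By RT-PCR it reported lower Irf8 in APL progenitors than in several normal myeloid subsets, and after PML/RARα was introduced into normal cells.

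The promoters of Irf8, Irf1 and Irf2 are shown because Irf8 had the largest change of the family, and because Irf1 and Irf2, which compete for the same sites, moved unequally. The sequences are from RefSeq on GRCm38.p6 and run 5′ to 3′ on the plus strand, from 250 bases before the transcription start to 50 bases after it. They lie at chr8:120736108-120736407 for Irf8, chr11:53769764-53770063 for Irf1 and chr8:46739495-46739794 for Irf2, each around the more upstream start where RefSeq lists several. Capitals mark matches to the gamma-activated site TTCNNNGAA (GAS), to the interferon-stimulated response element GAAANNGAAA (ISRE) or to the composite Ets-Irf element GGAANNGAAA (EICE), searched on both strands.
Irf8: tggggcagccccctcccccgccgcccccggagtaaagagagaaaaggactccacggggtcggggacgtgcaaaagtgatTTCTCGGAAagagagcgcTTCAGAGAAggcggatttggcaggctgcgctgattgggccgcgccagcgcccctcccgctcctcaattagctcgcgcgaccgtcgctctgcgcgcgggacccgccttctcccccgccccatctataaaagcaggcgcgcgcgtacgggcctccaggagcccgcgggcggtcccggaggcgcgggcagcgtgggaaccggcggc
Irf1: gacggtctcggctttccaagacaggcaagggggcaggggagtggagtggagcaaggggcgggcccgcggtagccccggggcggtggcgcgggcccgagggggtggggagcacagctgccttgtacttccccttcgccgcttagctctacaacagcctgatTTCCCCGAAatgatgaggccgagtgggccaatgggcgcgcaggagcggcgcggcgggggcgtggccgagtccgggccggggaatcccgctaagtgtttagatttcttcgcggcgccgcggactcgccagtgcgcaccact
Irf2: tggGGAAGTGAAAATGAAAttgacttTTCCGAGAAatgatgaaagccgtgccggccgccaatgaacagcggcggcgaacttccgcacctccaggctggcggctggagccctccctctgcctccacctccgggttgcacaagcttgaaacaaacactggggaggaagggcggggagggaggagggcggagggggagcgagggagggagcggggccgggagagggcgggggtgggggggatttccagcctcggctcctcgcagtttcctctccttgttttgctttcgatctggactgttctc
The Irf8 window held 2 GAS matches, TTCTCGGAA starting at position -171 and TTCAGAGAA starting at -153 relative to the start, and a TATAAA box at -31. The Irf1 window held the GAS match TTCCCCGAA at -90. The Irf2 window held an EICE match at -247 that overlapped an ISRE match at -241, followed by a GAS match at -224.

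Promoters were listed for all 8 genes. A GAS match was found in 3 of these 8 genes (Irf1, Irf2 and Irf8) and in 9.55% of all 27025 genes with a listed promoter. An ISRE match was found in 1 of 8 (Irf2) and in 3.99% of all genes, and an EICE match in 1 of 8 (again Irf2) and in 3.16% of all genes. TATAAA was found in 3 of 8 (Irf4, Irf7 and Irf8) and in 15.7% of all genes. Irf3, Irf5 and Irf9 matched none of these letters in their windows. These matches describe sequence only.

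The values below are scaled fragments, the fragment estimates of the table after the authors' scaling between libraries, or, where genes are compared with each other, FPKM, which also divides by transcript length. The libraries held between 20608715 and 28382785 fragments before scaling. MP replicate 3 stood apart, with median absolute log2 differences per gene of 0.209 and 0.213 from MP replicates 1 and 2, against 0.0793 between those 2.

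Of the 8 Irf genes, 5 were lower in APL progenitors than in MPs and none was higher. The 5 were Irf8, Irf5, Irf7, Irf9 and Irf1. The rule was a p adjusted over all genes tested (Benjamini-Hochberg) under 0.05 and a fold change over 1.5 in limma. This method fits a linear model to each gene and moderates its variance with those of all genes tested. Across all genes tested, 24.4% were called lower and 21.7% higher by the same rule. At an unadjusted p under 0.05, limma gave 5 Irf genes lower with the fold threshold and 6 without it, which adds Irf3, and 0 higher either way, and limma with voom weights called 5 lower and 0 higher. For 6 of the 8 genes, MP and APL values formed separate ranges, against 70.9% of all genes tested, so separate ranges were common in this comparison. The median log2 fold change was -1.03 over the 8 Irf genes and -0.10 over all genes tested. Without MP replicate 3, 5 Irf genes were again called lower.

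**Figure D1:**
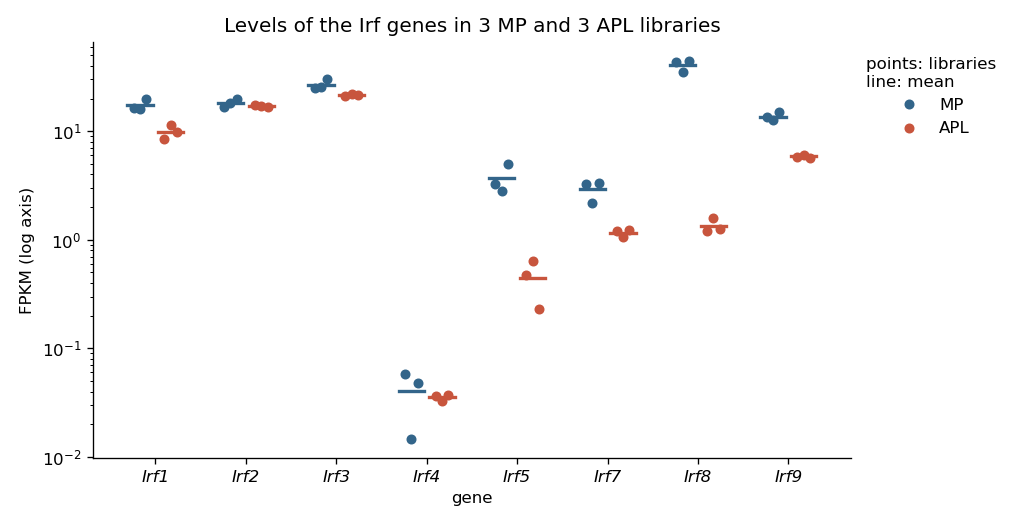
Level of each Irf gene as FPKM on a log axis, in MP (blue) and APL (red) libraries, with points for libraries and a line for the mean of 3. Irf8 led the family in MPs at a mean FPKM of 40.9 and stood below Irf3, Irf2, Irf1 and Irf9 in APL progenitors at 1.35. The points of Irf2 and of Irf4 overlapped between the groups.

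Irf8 (chr8:120736376-120756692) fell further than any other member. It was read at 3093, 2519 and 3285 scaled fragments in MP replicates 1 to 3 and at 87.2, 114 and 91.3 in APL replicates 1 to 3. All APL libraries lay far below all MP libraries, with no overlap. The mean was 2966 ± 398 scaled fragments in MPs and 97.6 ± 14.7 in APL progenitors (SD, n = 3), a 30.1-fold decrease on the log2(scaled fragments + 1) scale (log2 fold change -4.91, SE 0.14, 95% interval -5.23 to -4.60, adjusted p = 1.8e-08 in limma). Before scaling, the APL values rested on 74, 132 and 74 fragments, so the gene was still detected in every APL library. In FPKM with a pseudocount of 1 the log2 fold change was -4.15. Of all genes tested, 3.27% had a lower log2 fold change than Irf8. In level per length, 13.1% of genes tested were above Irf8 in MPs and 69.8% in APL progenitors.

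In these bulk samples, fewer cells that express a gene and less RNA per cell cannot be told apart. The MP gate holds erythroid and megakaryocyte progenitors as well as granulocyte and monocyte progenitors. Among all genes tested, 24.4% were lower in APL progenitors and 21.7% higher. All 6 erythroid markers tested (Klf1, Epor, Hba-a1, Tfrc, Car1 and Car2) were lower in APL progenitors, with a median log2 fold change of -7.25 and summed FPKM of the list from 1980 to 2487 in MP libraries and from 45.8 to 55.1 in APL libraries. Of 7 megakaryocyte markers, 6 were lower and Gp1bb was not called, with sums of 71.4 to 108 against 4.35 to 5.49 and a median of -5.37, or -4.41 with Gp9 at its bound of 3 fragments. Of 7 granulocyte precursor markers, 5 were higher (Mpo, Elane, Ctsg, Ms4a3 and Gfi1), with a median of 1.57 and with sums of 8839 to 10000.0 against 24340 to 28810. The part of these shifts in the values of the Irf genes was not tested.

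Irf4, the closest relative of Irf8 and known for its roles in lymphocytes and dendritic cells, was barely read in either group. It had 7.49, 1.90 and 6.31 scaled fragments in MPs and 4.71, 4.33 and 4.94 in APL progenitors, from between 2 and 8 fragments per library before scaling. The groups overlapped and the log2 fold change was 0.00 (95% interval -1.01 to 1.01, adjusted p = 0.998), a range too wide to place Irf4 as changed or unchanged.

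Among the factors that act downstream of pattern recognition, Irf5 and Irf7 were lower and Irf3 was not called. Irf5, a factor of Toll-like receptor signalling in macrophages, dendritic cells and B cells, stood at 197, 168 and 308 scaled fragments in MPs and 28.3, 39.0 and 13.6 in APL progenitors. Every APL library was below every MP library, and MP replicate 3 was the highest. The decrease was 8.44-fold (log2 fold change -3.08, SE 0.38, adjusted p = 9.8e-05), the second largest of the family. In FPKM with a pseudocount of 1, which compresses low values, the log2 fold change was -1.67 and Irf5 was still called lower. The value rested on 24, 45 and 11 fragments in the APL libraries.

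Irf7, the interferon-inducible amplifier of type I interferon production, stood at 155, 101 and 160 scaled fragments in MPs and 56.6, 49.4 and 56.8 in APL progenitors. The groups did not overlap and the decrease was 2.48-fold (log2 fold change -1.31, SE 0.21, adjusted p = 5.8e-04). Irf3, the constitutive factor that starts the interferon beta response, was read at 1357, 1368 and 1702 scaled fragments in MPs and 1133, 1197 and 1159 in APL progenitors. Its libraries did not overlap either, but the fold of 1.26 stayed under 1.5 (log2 fold change -0.34, SE 0.10, adjusted p = 0.014). Irf3 therefore had a small difference that limma placed beyond the spread between libraries and that the rule did not call.

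Irf9, the DNA-binding subunit of the complex formed with Stat2, was read at 1014, 944 and 1118 scaled fragments in MPs and 431, 453 and 425 in APL progenitors. It fell 2.34-fold with no overlap (log2 fold change -1.23, SE 0.09, adjusted p = 3.4e-06). The values within each group lay close together, with a coefficient of variation of 8.56% in MPs and 3.31% in APL progenitors.

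Irf1 and Irf2, activator and repressor on shared sites, moved unequally. Irf1, which interferon gamma induces, was read at 1020, 990 and 1259 scaled fragments in MPs and 527, 703 and 605 in APL progenitors. It fell 1.78-fold without overlap (log2 fold change -0.83, SE 0.13, adjusted p = 4.5e-04). Irf2 was read at 1109, 1183 and 1318 scaled fragments in MPs and 1129, 1094 and 1106 in APL progenitors. Its groups overlapped, and the log2 fold change was -0.11 (95% interval -0.30 to 0.07, adjusted p = 0.25). The Irf2 to Irf1 ratio in FPKM was 1.03, 1.14 and 1.01 in MP replicates 1 to 3 and 2.05, 1.498 and 1.72 in APL replicates 1 to 3. All 3 APL ratios were above all 3 MP ratios, with means of 1.06 ± 0.07 and 1.75 ± 0.28 (SD, n = 3; two-sided exact permutation test p = 0.1, the smallest that 3 against 3 allows). This ratio was chosen after the values were seen.

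**Figure D2:**
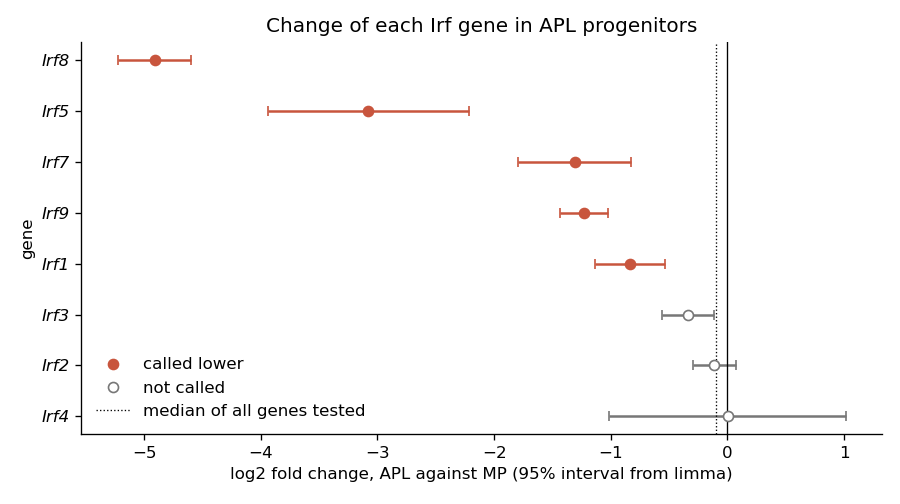
Log2 fold change of each Irf gene in APL progenitors against MPs with its 95% interval from limma, filled where called lower, with a dotted line at the median of all genes tested (-0.10). Irf8 at -4.91 and Irf5 at -3.08 lie apart from Irf7, Irf9 and Irf1, which lie between -1.31 and -0.83, and the intervals of Irf2 and Irf4 cross 0.

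The 8 genes lie on 6 chromosomes, with Irf2 and Irf8 on chromosome 8 and Irf3 and Irf7 on chromosome 7. The 778 genes of chromosome 8 had a median log2 fold change of 0.48 against -0.13 for the genes of other chromosomes. Relative to their own chromosome, Irf8 was lower by a log2 value of -5.39 and Irf2 by -0.59, with 98.3% and 78.8% of chromosome 8 genes above them. The part of the chromosome 8 shift in the values of these 2 genes was not tested. For Irf3, Irf4 and Irf7, subtracting the chromosome median left -0.28, 0.12 and -1.25.

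No other gene of the table overlapped the locus of an Irf gene. In RefSeq, the spans of 2 long non-coding RNA genes (Gm31172 and Gm39170) overlap the Irf2 locus. Whether their exons overlap those of Irf2 was not examined, and strand-specific counting was not stated. It is therefore not known whether their reads entered the Irf2 value.

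Set against its family within each library, Irf8 moved from the most abundant member to the middle. In level per length, the MP order was Irf8 (mean FPKM 40.9), Irf3 (26.8), Irf2 (18.3), Irf1 (17.4), Irf9 (13.7), Irf5 (3.67), Irf7 (2.92) and Irf4 (0.04). Among neighbours in this order, Irf2 and Irf1 overlapped between libraries, as did Irf5 and Irf7. The APL order was Irf3 (21.5), Irf2 (17.1), Irf1 (9.88), Irf9 (5.85), Irf8 (1.35), Irf7 (1.16), Irf5 (0.45) and Irf4 (0.04), where the libraries of Irf8 and Irf7 were the overlapping pair of neighbours. By their means, Irf3, Irf2, Irf1 and Irf9 stood in the same order in both groups, and Irf8 was above all 4 of them in MPs and below all 4 in APL progenitors.

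Irf8 made up 35.6%, 31.4% and 32.1% of the summed Irf FPKM in MP replicates 1 to 3 and 2.17%, 2.64% and 2.25% in APL replicates 1 to 3. The means were 33.1% ± 2.28 and 2.35% ± 0.25 (SD, n = 3; two-sided exact permutation test p = 0.1, the smallest possible). The summed FPKM of the family was 124 ± 12.4 in MPs and 57.3 ± 2.14 in APL progenitors. Without Irf8 the sum was 82.8 ± 8.87 in MPs and 55.9 ± 1.94 in APL progenitors, so that leaving Irf8 out made the difference between the groups smaller without removing it. The mean shares of Irf2 and Irf3 were 14.9% and 21.7% in MPs and 29.9% and 37.5% in APL progenitors, although neither gene was called higher. For each of these sums and shares the 6 libraries separated by group.

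**Figure D3:**
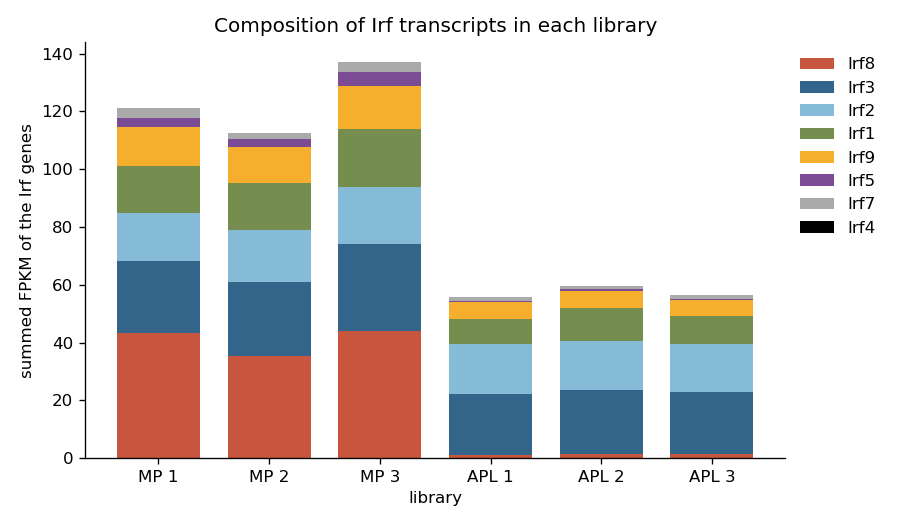
FPKM of the 8 Irf genes stacked in each of the 6 libraries, from Irf8 at the base upwards. The total fell from between 113 and 137 in the MP libraries to between 55.7 and 59.7 in the APL libraries, and the Irf8 block shrank from between 31.4% and 35.6% of the bar to between 2.17% and 2.64%.

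The unequal change was tested within libraries as the log2 level of Irf8 minus the mean log2 level of the other 7 genes, on the log2(scaled fragments + 1) scale. This difference was 3.24, 3.29 and 3.11 in MPs and -0.87, -0.58 and -0.69 in APL progenitors, a shift of -3.93. The shift was -3.76 when Irf4 was left out of the mean, a setting added after the data were seen. Against each single member, Irf8 fell further in every case, by between 1.83 on the log2 scale (against Irf5) and 4.91 (against Irf4). All 7 pairwise differences separated the groups without overlap. Each had p = 0.1 in the two-sided exact permutation test and 0.1 after Benjamini-Hochberg adjustment over the 7 pairs, the smallest value that this design can give.

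The genes whose profile over the 6 libraries was most like that of Irf8 were sought among 10309 genes with a mean of at least 100 scaled fragments. They were Galnt6, Rasa4, Igf2r, Stard10 and Ece1, with root mean square differences between centred log2 profiles from 0.13 to 0.22. Their log2 fold changes lay between -5.24 (Ece1) and -4.79 (Rasa4), on 5 chromosomes other than chromosome 8.

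The wider pathway was read from 6 lists of genes. The lists were drawn up with earlier results of these data known, so their counts are descriptions. They stand beside shares of 24.4% called lower and 21.7% called higher over all genes tested. Of 8 interferon receptor and JAK-STAT genes, 1 was lower and 0 were higher in limma, with a median log2 fold change of 0.20. At an unadjusted p under 0.05, 0 were higher with the fold threshold and 5 without it, and voom weights also called 0 higher. With median ratio scaling, or without MP replicate 3, 1 was called higher. The kinase gene Jak2 was lower (log2 fold change -0.66, SE 0.06, adjusted p = 2.2e-05) and not called with a fold over 2. Ifnar1, Ifnar2, Ifngr1, Ifngr2, Jak1, Tyk2 and Stat2 were not called and had log2 fold changes from 0.09 to 0.55. Neither a receptor chain nor Stat2, the partner of Irf9, was thus among the lower genes.

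Of 17 sensors, adaptors and kinases upstream of Irf3, Irf5 and Irf7, 3 were lower and 3 higher. The shares over all genes tested were 24.4% and 21.7%. The median log2 fold change of the list was 0.11. The higher genes were the endosomal RNA receptor Tlr7 (log2 fold change 3.83), the lipopolysaccharide receptor Tlr4 (3.05) and the adaptor Myd88 (0.82). Tlr7 was read at 74.0, 62.8 and 55.0 scaled fragments in MPs and at 920, 951 and 876 in APL progenitors. The lower genes were the RNA-sensing adaptor Mavs (-1.14), the DNA-sensing adaptor Tmem173 (-1.55) and the DNA receptor Tlr9. Tlr9 was at or under 3 fragments in every APL library, and at that limit was at least 2.73-fold lower. The kinases Tbk1 and Ikbke, which phosphorylate Irf3 and Irf7, were not called (log2 fold changes 0.08 and 0.11).

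Of 9 partners and co-factors of Irf proteins, 8 were tested. Of these, 2 were lower and 3 higher, against 24.4% and 21.7% of all genes tested (median log2 fold change -0.34). PU.1, the partner with which Irf8 and Irf4 bind composite elements, is encoded by the gene listed as Sfpi1. It was read at 2275, 1925 and 2641 scaled fragments in MPs and 5634, 6998 and 6250 in APL progenitors. All APL libraries were above all MP libraries (log2 fold change 1.47, SE 0.12, adjusted p = 8.7e-06), so PU.1 and Irf8 transcripts moved in opposite directions. The related Ets gene Spib was low in both groups and not called (-0.60). Batf was higher (0.77), and Batf3, needed for a class of dendritic cells, was read at no more than 2.81 scaled fragments in an MP library and at 0 in the APL libraries, and was not tested. The co-repressor Irf2bp2 on chromosome 8 was higher (1.17), while Irf2bp1 (-0.46) and Irf2bpl (-0.23) were not called. Tcf3 (-1.38) and Ikzf1 (-0.81) were lower, and 1 of the list was lower with a fold over 2.

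Of 24 type I interferon-stimulated genes, which the Irf9 complex controls, 10 were lower and 5 higher, against 24.4% and 21.7% of all genes tested. The median log2 fold change was -0.26. Ifi44 (-3.37), the interferon antagonist Usp18 (-2.78), Oasl1 (-2.70) and the antiviral GTPase Mx2 (-2.35) had the largest decreases. Before scaling, the APL libraries held at most 4 fragments of Ifi44 and at most 9 each of Oasl1 and Mx2, so these sizes are uncertain. Usp18 was read at 122, 97.1 and 120 scaled fragments in MPs and 10.6, 27.7 and 12.3 in APL progenitors. Ifit2 (1.94), Oas1a (1.22), Ifit1 (1.01) and Bst2 (0.93) had the largest increases. Ifit2 was read at 611, 574 and 574 scaled fragments in MPs and 2256, 2214 and 2272 in APL progenitors. Members of the list thus moved both ways. The summed FPKM of the list was from 104 to 124 in MPs and from 162 to 187 in APL progenitors. Bst2 weighed most in these sums, with a mean FPKM of 47.9 in MPs and 93.3 in APL progenitors, the highest of the list in both groups. In FPKM with a pseudocount of 1, which compresses low values, 5 of the list were called lower, and with a fold over 2, 3 were called higher. Several Oas, Ifit and Mx genes are near copies of one another, and while the paper's methods state that uniquely mapped reads were kept, they do not say whether this holds for the deposited table.

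Of 20 genes known as targets of Irf1 or interferon gamma, 11 were higher and none lower in limma. The shares over all genes tested were 21.7% higher and 24.4% lower. The median log2 fold change of the list was 0.75. At an unadjusted p under 0.05, 11 were higher with the fold threshold and 12 without it, and 0 lower either way, while voom weights gave 10 higher and 0 lower. With a fold over 2, 6 were higher. With the replicate block, without MP replicate 2 or without APL replicate 1, 1 gene of the list was called lower. The chemokine genes Cxcl10 (5.42) and Cxcl9 (3.90) and the signalling inhibitor Socs1 (2.85) were among the largest increases. Cxcl10 was read at 16.9, 8.57 and 18.9 scaled fragments in MPs and at 609, 648 and 675 in APL progenitors. Ido1, a tryptophan-degrading enzyme gene on chromosome 8, was at or under 3 fragments in every MP library and at that limit was at least 9.17-fold higher. The immunoproteasome and peptide transporter genes Psmb8, Psmb9, Psmb10, Tap1 and Tap2, classical Irf1 targets, were not called and had log2 fold changes from -0.06 to 0.13. Irf1 itself was lower in the same libraries.

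Of 8 genes that Irf8 is known to control in myeloid cells, 7 were tested. Of these, 2 were lower and 3 higher, against 24.4% and 21.7% of all genes tested (median log2 fold change 0.11). The phosphatase gene Ptpn13 was read at 98.3, 107 and 112 scaled fragments in MPs and at 1.18, 0 and 1.23 in APL progenitors, at least 32.2-fold lower at the limit of 3 fragments. The class II transactivator gene Ciita was at least 7.01-fold lower by the same limit. Cybb, of the phagocyte oxidase, was higher (log2 fold change 0.79), as were the ceramidase gene Asah1 (1.30, on chromosome 8) and the protease inhibitor gene Cst3 (1.27). The monocyte regulator Klf4 (0.11) and the Ras regulator Nf1 (-0.29) were not called. Cdkn2b was read in few libraries and not tested. In FPKM with a pseudocount of 1, 0 of the list were called lower. Irf8 is known to repress Ptpn13 and Asah1 and to activate the other genes named here, so that each kind was found on both sides. Whether Irf8 acted on these genes in these cells was not tested.

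**Figure D4:**
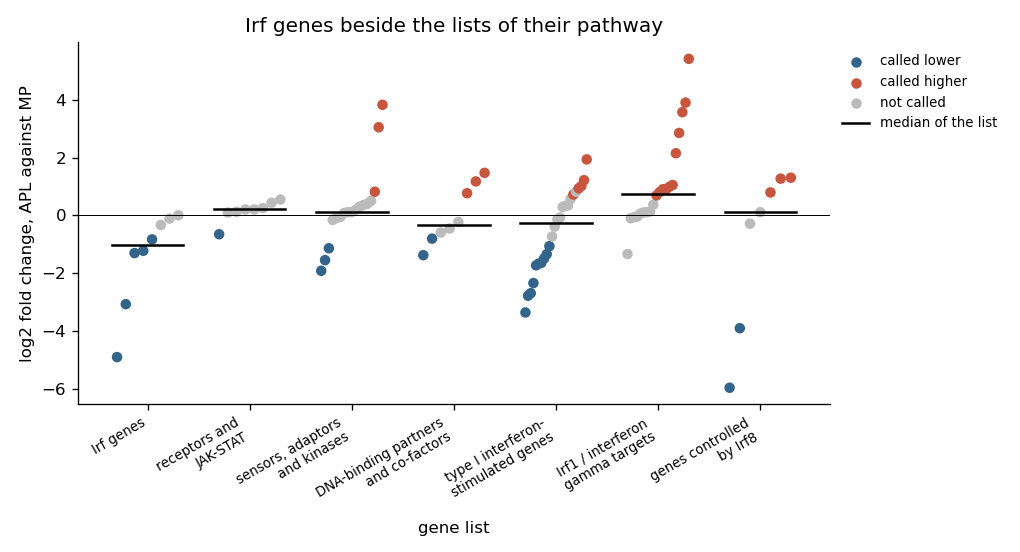
Log2 fold change of every tested gene of the Irf family and of 6 pathway lists in APL progenitors against MPs, coloured by call, with the median of each list as a bar. The family's median is -1.03, and the medians of the lists run from -0.34 (partners and co-factors) to 0.75 (targets of Irf1 or interferon gamma).

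Markers of the cell types in which Irf8 is prominent were split. Their counts stand beside 24.4% lower and 21.7% higher over all genes tested. Of 9 monocyte and macrophage markers, 6 were higher (Ly6c2, F13a1, Emr1, Cd68, Cd14 and Ccr2) and 3 were lower (Csf1r, Cx3cr1 and Ms4a6c), with a median log2 fold change of 1.39. Ly6c2, the Ly6C antigen gene, was higher by 3.61 on the log2 scale, while Cx3cr1, the fractalkine receptor gene, was lower at -2.82. Of 12 dendritic cell markers, 7 were lower and 1 higher, with a median of -2.42, or -2.03 with genes at or under 3 fragments set to their bound. The transcription factor gene Zbtb46 was at least 97.1-fold lower. The receptor gene Flt3 fell from 1564, 1670 and 2448 scaled fragments to 29.5, 30.3 and 35.8 (log2 fold change -5.83, adjusted p = 2.8e-08 in limma). Which cells of the mixed MP gate held the Zbtb46 and Flt3 transcripts was not tested. Itgax, Xcr1, H2-Eb1 and Cd209a of the same list were not called (log2 fold changes 0.61, -0.88, 0.29 and 0.47). Summed FPKM of the dendritic list overlapped between the groups, from 76.4 to 106 in MPs and from 82.9 to 106 in APL progenitors. Bst2, which is also an interferon-stimulated gene and was the higher gene of the list, had a mean FPKM of 47.9 ± 6.97 in MPs and 93.3 ± 11.8 in APL progenitors (SD, n = 3).

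Of 7 B lymphoid markers tested, 4 were lower and 2 (Igll1 and Vpreb1) were higher, with a median log2 fold change of -1.75, or -0.35 with low genes at their bound. The summed FPKM of this list was from 14.56 to 16.17 in MPs and from 257.4 to 297.5 in APL progenitors, where Igll1 had a mean of 264. Of 5 T and NK cell markers tested, 2 were lower and 0 higher in limma, also at an unadjusted p under 0.05, with a median of -0.52, or -0.10 with the low gene at its bound. Of 8 mature neutrophil markers, 2 were lower and 3 higher, with a median of 0.06. Their summed FPKM was from 11950 to 18570 in MPs and from 45840 to 59730 in APL progenitors. Over all genes tested, the shares lower and higher were 24.4% and 21.7%. Single markers within these lists differed. Cd3e was at 0 in all MP libraries and at 0, 0 and 1.23 scaled fragments in APL replicates 1 to 3. Cd3d was read at 32.8, 18.1 and 43.3 in MPs and was not called. Rag1, of the B lymphoid list, was at 0 in all APL libraries, where Igll1 was read at 4567, 5264 and 4873. Of the sorting genes, Kit was lower in APL progenitors by -0.85 on the log2 scale and Ly6a, which encodes Sca-1, was higher by 0.68 (adjusted p = 0.043) at low levels, with at most 48.8 scaled fragments. The part of these markers in the results on Irf genes was not tested.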

How the data were processed

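Total RNA from 6 sorted samples (3 MP, 3 APL) was prepared with a TruSeq RNA kit. The authors deposited 1 table with FPKM values and a fragment signal per gene, which holds estimated fragments multiplied by a scaling constant per library. The tool that made it was not named. The labels list CASAVA 1.8, TopHat2 2.0.6 and mm10, the paper's methods STAR on mm9, HTSeq-count and DESeq2, and the loci fit GRCm38 with starts counted from 0 (printed from 1). The most frequent low value of each library was taken as 1 fragment. Dividing by it gave 20608715 to 28382785 fragments per library. Whole numbers (within 0.05) resulted for 87.6% to 90.3% of nonzero values, so a count model was not used.

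Scaled fragments were tested with limma 3.58.1 (R 4.3.3, trend) on log2(value + 1), which understates changes of low genes, for genes with at least 1 in at least 3 of 6 libraries. P-values were adjusted by Benjamini-Hochberg over all 14595 genes. Genes were called at adjusted p under 0.05 and fold over 1.5. A fold against libraries all at or under 3 fragments is a lower bound, which covers counting error only. Levels between genes were compared in FPKM. The fit was tested on simulated data. Values of the Irf-family summaries were compared by exact permutation of libraries.

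The members and lists were chosen with earlier results of these data known. Some genes are not reported here. Genes named were every Irf gene examined, the called genes with the 4 largest changes per direction in each list, genes of lists of at most 9, the 5 most like Irf8, and Kit and Ly6a. Marker lists were summarised by counts, so not every marker gene under this rule is named. Others were named after their values were seen. Alternatives were pseudocounts, filters, scalings, FPKM, voom, a fold over 2, a replicate block and leaving out each library. Sequences were read from RefSeq tables in Python 3.11.15, with figures from matplotlib 3.10.9.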

Additional observations from a re-analysis of the deposited data

How the results depend on the processing

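Irf8, Irf5, Irf7, Irf9 and Irf1 kept their direction and their call under the 17 alternatives that kept the thresholds, with log2 fold changes of Irf8 from -5.05 to -4.15. The number of Irf genes called lower was between 4 and 5 and the number called higher was 0 in all 19 alternatives, and the value of 4, with a fold over 2, left out Irf1. Irf4, at few fragments, changed sign. Its log2 fold change was -0.0065 in FPKM with a pseudocount of 1 and -0.037 in FPKM with a pseudocount of 0.1. It was -0.036 with a pseudocount of 10, -0.10 with libraries scaled to the same total and -0.12 with voom. With 1 library left out it ran from -0.48 to 0.30, and with quantile normalization it was 0.74, the highest value. Irf4 was never called. The cause of the change of sign was not tested. Of the pathway lists together, 10 genes were called lower in FPKM with a pseudocount of 1, which compresses low values, and 15 were called higher with a fold over 2, against 18 and 25 with the settings of the report. The Irf8 minus family shift was -3.47 in FPKM with a pseudocount of 1 and -3.76 without Irf4 (added after seeing the data). The Irf8 share fell by 33.7 percentage points in scaled fragments and by 30.7 in FPKM. Over all genes tested, the median log2 value shifted from -0.10 to -0.23 with the same total. The labels number libraries 1 to 3 in both groups. Same-numbered libraries had deviations correlated at 0.13, -0.00 and 0.13, so the numbers were not taken as pairs, and a fit with the replicate block gave -4.91 for Irf8, called 5 Irf genes lower, and shared 6673 of the 6725 calls over all genes. Depth limits Irf4, read from at most 8 fragments in any library.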

Other observations

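Genes of class II and class I antigen presentation were picked from the lists after their values were seen, and are given as values. Ciita, the class II transactivator, was read at 32.8, 19.04 and 17.1 scaled fragments in MP replicates 1 to 3 and at 0, 2.60 and 0 in APL replicates 1 to 3. H2-Aa was read at 103, 64.7 and 96.5 in MPs and at 2.36, 4.33 and 3.70 in APL progenitors (log2 fold change -4.32, adjusted p = 2.6e-06 in limma), H2-Ab1 was lower (-3.25) and the invariant chain gene Cd74 was lower (-2.93), while H2-Eb1 was low in both groups and not called (0.29). Nlrc5, the class I transactivator on chromosome 8, was read at 723, 673 and 727 scaled fragments in MPs and at 1540, 1507 and 1358 in APL progenitors (log2 fold change 1.05, adjusted p = 4.4e-06). B2m (0.99) and the peptide-loading gene Tapbp (0.81) were higher, while Tap1 (0.13), Tap2 (0.10), Psmb8 (-0.06), Psmb9 (0.06) and Psmb10 (-0.04), which supply peptides to class I molecules, were not called. H2 genes are near copies of one another, and whether reads shared between them were kept in the deposited table was not stated.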
